A study of Mus musculus with 18 samples.

Results

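The Bcl2 family of apoptosis regulators was followed in the small intestinal crypts of mice in which Prmt1, the gene for an arginine methyltransferase, was deleted from the intestinal epithelium. Its members were the rows of the count table that carry 1 of 10 gene symbols (Bcl2, Bcl2l1, Mcl1, Bak1, Bok, Bcl2l11, Bid, Bmf, Bcl2l14 and Bcl2l15), out of 55335 genes in all. All 10 passed the filter on low counts and were tested. Every mouse carried Prmt1 fl/fl alleles, was 8 to 12 weeks old and received tamoxifen at 2 mg per injection. Mice collected at day 2 had been injected 2 times, and those collected at day 7 or 14 had been injected 5 times. The KO mice also carried Vil-CreERT2, a Cre recombinase that tamoxifen activates and that the villin promoter drives, so cells other than the epithelium kept Prmt1. WT mice were littermates without the recombinase. No group carried the recombinase without the fl/fl alleles. Effects of the activated recombinase and of the loss of Prmt1 therefore cannot be told apart in any comparison of KO with WT. Crypts, the epithelial pockets that hold the stem, progenitor and Paneth cells, were isolated from 3 mice per genotype and day, and ribosomal RNA-depleted total RNA was sequenced, giving 18 libraries in 6 groups.

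The family decides whether a cell keeps the outer membrane of its mitochondria closed. Anti-apoptotic members hold the pore-forming effectors in check, BH3-only members carry death signals and bind both, and once the effectors open the membrane, cytochrome c leaves and activates the caspases. In the intestine, cell death in the crypt clears damaged stem and progenitor cells, and the family also serves cells that are shed from the villus.

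The short BH3 region, through which members bind each other, ties the family together at the sequence level, and it is shown for every member because the classes below differ in how they use it. The coding sequence of each member was searched for a leucine codon, 3 codons of any kind, a glycine or alanine codon and an aspartate codon. Each of the 10 held exactly 1 match, whereas 12.6% of 6631 genes with a coding sequence of 167 to 331 codons, the range of the members, held at least 1. The pattern describes the core of the BH3 region that ties the family together, so a match in every member is a description and not a test. The 30 bases around each match are given in coding direction from GENCODE release 21 transcripts on GRCm38 (mm10), with the leucine, glycine or alanine, and aspartate codons in capitals.
Bcl2 (chr1:106712578-106712607, minus strand, exon 1 of 2): ctgaccCTCcgccgggctGGGGATgacttc
Bcl2l1 (chr2:152829700-152829729, minus strand, exon 2 of 3): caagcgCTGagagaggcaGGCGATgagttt
Mcl1 (chr3:95659430-95659459, plus strand, exon 1 of 3): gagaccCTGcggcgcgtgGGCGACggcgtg
Bak1 (chr17:27022534-27022563, minus strand, exon 4 of 6): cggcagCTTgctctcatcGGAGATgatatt
Bok (chr1:93686651-93689167, plus strand, across the border of exons 2 and 3): acagtgCTGctgcgcttgGGAGATgagctg
Bcl2l11 (chr2:128147144-128147173, plus strand, exon 3 of 4): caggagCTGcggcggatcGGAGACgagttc
Bid (chr6:120897292-120897321, minus strand, exon 4 of 6): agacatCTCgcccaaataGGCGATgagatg
Bmf (chr2:118545103-118545132, minus strand, exon 4 of 5): agaaagCTTcagtgtattGCAGACcagttc
Bcl2l14 (chr6:134430098-134430127, plus strand, exon 4 of 6): gagctgCTGaaattctcgGGGGATcagttg
Bcl2l15 (chr3:103833391-103833420, plus strand, exon 2 of 4): ggccgcCTTcgaatactgGGTGATcagttc
Bmf was the member with an alanine codon at the small residue, and the other 9 had a glycine codon there.

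The count table, whose total per library ranged from 12844642 to 31493484, was normalized by TMM, and 21349 genes were tested in 1 model of all groups. A gene was called where edgeR's quasi-likelihood test gave an adjusted p under 0.05 (Benjamini-Hochberg over all 21349 genes), and levels are given as CPM, counts scaled to the normalized library size. Prmt1 itself lay between 13.1 and 17.4 CPM in the 9 KO libraries and between 20.2 and 30.6 CPM in the 9 WT libraries, and was called lower on each day; the day 2 call (-0.89 on the log2 scale) was lost with any 1 of its libraries left out, with an edgeR adjusted p of up to 0.183, and in a model of only the groups compared (0.0939), and the day 7 call (-0.59) without KO replicate 1 (0.0655). Each of the 6 epithelial markers had at least 3414 counts in every library. Of the marker lists at day 7, 6 of 6 Paneth cell and 4 of 6 stem cell markers fell in KO and 8 of 8 enteroendocrine markers rose, as did 2 of 8 stromal markers, while 0 of 12 immune markers were called (none had an unadjusted p under 0.05). Goblet cell markers gave 2 of 7 lower. Of 8 enterocyte markers 1 was called higher and 1 lower, with a median log2 fold change of 0.66 and 5 at an unadjusted p under 0.05. Fewer cells of a type and less RNA per cell cannot be told apart in such bulk samples.

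In WT crypts the members covered a wide range of levels. Compared per length, as RPKM over the exons of each gene, the median over the 9 WT libraries was highest for Mcl1 at 39.5 RPKM (35.2 to 50.5), followed by Bak1 at 26.4 RPKM (22.5 to 44.0) and Bcl2l15 at 15 RPKM (12.6 to 23.2). Bcl2l14 had a median of 7.52 RPKM, Bcl2l1 of 6.28 RPKM, Bok of 4.16 RPKM and Bid of 4.02 RPKM. The lowest were Bcl2l11 at 1.66 RPKM, Bcl2 at 1.64 RPKM and Bmf at 0.890 RPKM (0.517 to 1.07). Among neighbours in this order, the ranges of the WT libraries were apart between Bcl2l15 and Bcl2l14, between Bid and Bcl2l11, and between Bcl2 and Bmf, and they overlapped in the other 6 pairs. Among the members, Mcl1, a short-lived anti-apoptotic protein, and Bak1, a pore-forming effector, were therefore the main transcripts of their classes. Across groups, Mcl1 made up 82.9% to 85.3% of the summed RPKM of the anti-apoptotic members on average. Bak1 made up 69.2% to 80.0% of that of the effectors and BH3-only members. Family genes that are not members were left out of these sums. Of those, Bcl2l2 averaged 9.68 RPKM and Bax 10.7 RPKM in WT at day 7.

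**Figure D1:**
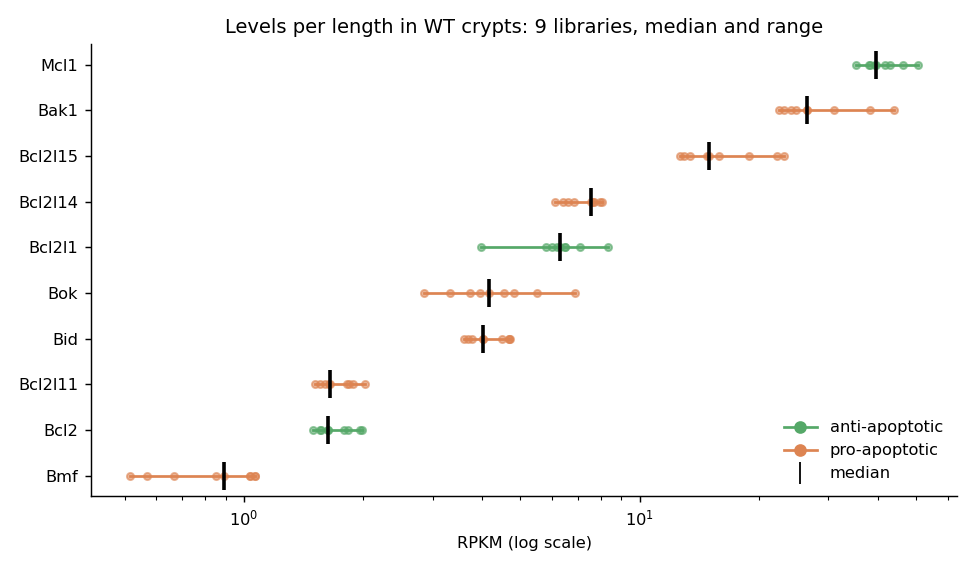
RPKM of each member in the 9 WT libraries on a log axis, with points for libraries, a line for the range and a black tick for the median. Mcl1 (39.5) and Bak1 (26.4) stand at the top and Bmf (0.890) at the bottom.

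At day 2 no member was called (adjusted p = 0.999 for each, edgeR's quasi-likelihood test), and of all genes tested 0.0328% were called, 7 genes. DESeq2's Wald test called 0 of the 10 as well, none had an unadjusted p under 0.05, and in none did the 3 KO libraries lie apart from the 3 WT libraries, against 8.16% of all genes. The estimates ran from a log2 fold change of -0.15 for Bcl2l1 (95% interval -0.50 to 0.20) to 0.28 for Bcl2l15 (-0.14 to 0.71). For the members that fell at day 7 the day 2 intervals were -0.53 to 0.30 for Bcl2, -0.40 to 0.26 for Bcl2l11 and -0.71 to 0.49 for Bmf. The median over the 10 was 0.0051, and over all genes -0.0048.

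At day 7 members of the family changed in both directions. Of the 10 members, 6 were called, against 17.3% of all genes: Bak1, Bid and Bcl2l15 rose (7.11% of all genes were called higher) and Bcl2, Bcl2l11 and Bmf fell (10.2% were called lower). Thus 1 of 3 anti-apoptotic members fell, and among the 7 members taken as pro-apoptotic 3 rose and 2 fell. These 7 include the less studied Bcl2l14 and Bcl2l15, of which Bcl2l15 is among the 3 that rose. The 3 KO libraries lay apart from the 3 WT libraries for 7 of 10 members, the 6 called and Bcl2l1, against 33.6% of all genes. The median log2 fold change was 0.07 over the anti-apoptotic and 0.04 over the pro-apoptotic members, beside 0.016 over all genes.

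**Figure D2:**
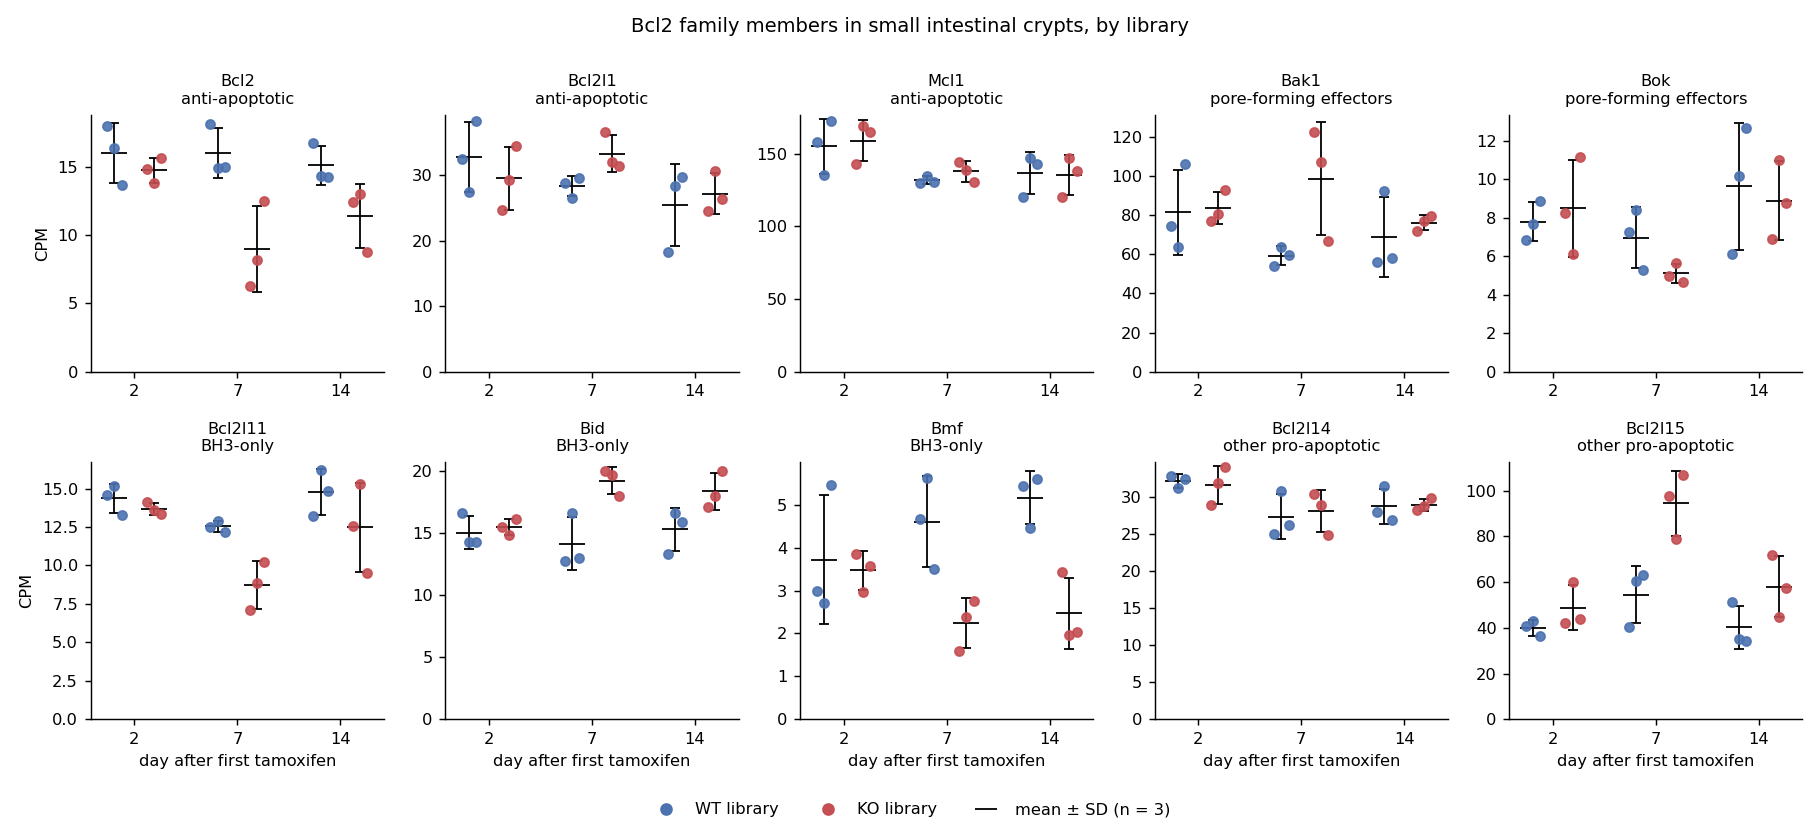
CPM of the 10 members in every library by day, WT in blue and KO in red, with mean and SD of 3 libraries. At day 7 the KO points of Bcl2 (6.31 to 12.5 CPM), Bcl2l11 and Bmf lie below WT, and those of Bak1, Bid and Bcl2l15 (78.9 to 107 CPM) above it.

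Among the anti-apoptotic members, Bcl2 (chr1:106538178-106714274, minus strand), the founder of the family, was at 6.31, 8.18 and 12.5 CPM in the KO libraries of day 7 and at 18.2, 14.95 and 14.98 CPM in WT. Every KO library was below every WT library, and KO replicate 1 was the lowest. The log2 fold change was -0.84 (SE 0.20, 95% interval -1.26 to -0.42, edgeR quasi-likelihood adjusted p = 0.0068), a level of 0.560 times WT. Bcl2l1 (chr2:152780668-152831728, minus strand), which encodes Bcl-xL, was at 36.6, 32.0 and 31.4 CPM in KO and at 28.8, 26.6 and 29.7 CPM in WT. These groups did not overlap either, but the change of 0.23 (95% interval -0.12 to 0.58, edgeR quasi-likelihood adjusted p = 0.387) did not pass. Mcl1 (chr3:95658788-95663176, plus strand) was at 145, 139 and 130 CPM in KO and at 130, 135 and 130 CPM in WT, with a log2 difference of 0.07 (95% interval -0.20 to 0.34). The groups of Mcl1 overlapped, and its interval leaves out a fall of the size measured for Bcl2.

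Of the effectors, Bak1 (chr17:27019810-27029009, minus strand), which forms pores together with Bax, was at 122, 107 and 66.5 CPM in KO and at 54.1, 63.6 and 59.8 CPM in WT. KO replicate 3 lay just above the highest WT library and the other two far above it. The log2 fold change was 0.74 (SE 0.22, 95% interval 0.28 to 1.19, edgeR quasi-likelihood adjusted p = 0.0243), a level of 1.67 times WT. Bok (chr1:93685660-93695764, plus strand), an effector that can act without Bax and Bak, was at 4.98, 5.65 and 4.67 CPM in KO and at 7.27, 8.37 and 5.26 CPM in WT. The groups of Bok overlapped, and the change of -0.44 (95% interval -0.98 to 0.10, edgeR quasi-likelihood adjusted p = 0.270) did not pass.

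All 3 BH3-only members were called, in both directions. Bid (chr6:120891930-120916853, minus strand), which caspase-8 cleaves to carry a death receptor signal to the mitochondria, was at 20.1, 19.7 and 18.03 CPM in KO and at 12.8, 16.6 and 13.1 CPM in WT, all KO above all WT. Its log2 fold change was 0.45 (SE 0.13, 95% interval 0.18 to 0.72, edgeR quasi-likelihood adjusted p = 0.0218). Bcl2l11 (chr2:128126038-128162547, plus strand), which encodes Bim, was at 7.12, 8.88 and 10.2 CPM in KO and at 12.5, 12.9 and 12.2 CPM in WT, all KO below all WT. It fell by 0.52 on the log2 scale (SE 0.16, edgeR quasi-likelihood adjusted p = 0.0310). Bmf (chr2:118528757-118549687, minus strand), a member that binds the cytoskeleton and senses detachment, was at 1.601, 2.39 and 2.75 CPM in KO and at 4.68, 5.62 and 3.50 CPM in WT. The groups of Bmf did not overlap although its counts were the smallest of the family, 30 to 147 per library, and it fell by 1.02 on the log2 scale (SE 0.29, 95% interval -1.63 to -0.42, edgeR quasi-likelihood adjusted p = 0.0189), a level of 0.492 times WT.

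The remaining pair is less studied. Bcl2l15 (chr3:103832601-103854618, plus strand), which encodes Bfk, was at 97.8, 78.9 and 107 CPM in KO and at 40.3, 60.4 and 63.0 CPM in WT. All KO libraries were above all WT libraries, and the log2 fold change was 0.79 (SE 0.20, 95% interval 0.37 to 1.22, edgeR quasi-likelihood adjusted p = 0.0106), a level of 1.73 times WT. Bcl2l14 (chr6:134396318-134438736, plus strand), which encodes Bcl-G, was at 30.5, 28.9 and 24.9 CPM in KO and at 25.04, 30.8 and 26.2 CPM in WT. The groups of Bcl2l14 overlapped, and the log2 difference was 0.04 (95% interval -0.20 to 0.28).

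How many members were called at day 7 depended on single libraries. Without KO replicate 1, in which Bcl2, Bcl2l11 and Bmf were lowest and Bak1 and Bid were highest, Bcl2l15 alone was called, and adjusted p was 0.0542 for Bcl2, 0.123 for Bak1, 0.200 for Bcl2l11, 0.0735 for Bid and 0.111 for Bmf. Without WT replicate 1 Bcl2 alone was called, with adjusted p between 0.0540 for Bmf and 0.109 for Bid in the other 5. Leaving out WT replicate 2 left Bcl2, Bid and Bcl2l15, and leaving out WT replicate 3 or KO replicate 2 left Bcl2, Bmf and Bcl2l15. All 6 remained called without KO replicate 3. KO replicate 1 was also the library with the smallest summed level of the 6 stem cell markers, 460 CPM against 1039 and 1086 CPM in the other KO libraries and 1704 to 2315 CPM in WT. The summed Paneth cell markers were at 1391 CPM in it, against 3908 and 3731 CPM in the other KO libraries and 8808 to 14695 CPM in WT. The 8 enteroendocrine cell markers summed to 660 to 820 CPM in KO and 298 to 318 CPM in WT. Enterocyte markers summed to 18229 CPM in KO replicate 1, 12949 and 11984 CPM in the other KO libraries and 8280 to 10247 CPM in WT, and epithelial markers to 7321, 6406 and 5033 CPM in KO and 5096 to 6032 CPM in WT. Immune cell markers summed to 260 to 604 CPM in KO and 177 to 397 CPM in WT. The part of these cell types in the changes of the family was not tested.

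At day 14, 1 member was called, against 7.92% of all genes in either direction and 4.69% lower. Bmf was at 3.43, 1.96 and 2.02 CPM in KO and at 5.44, 4.46 and 5.61 CPM in WT, all KO below all WT, and it fell by 1.05 on the log2 scale (SE 0.29, 95% interval -1.67 to -0.43, edgeR quasi-likelihood adjusted p = 0.0324). This call was lost without WT replicate 1 or 3, or KO replicate 2 or 3, and adjusted p then reached 0.135; without WT replicate 1, Bcl2l15 was called in its place (adjusted p = 0.0452). Bcl2 was at 12.4, 13.1 and 8.77 CPM in KO and at 16.8, 14.3 and 14.3 CPM in WT. For Bid the values were 17.1, 17.98 and 20.03 CPM in KO and 13.4, 16.7 and 15.9 CPM in WT. The groups of both were apart, as for 3 of 10 members and 26.5% of all genes, but neither change passed: -0.40 for Bcl2 (95% interval -0.82 to 0.02, edgeR quasi-likelihood adjusted p = 0.263) and 0.26 for Bid (-0.02 to 0.53, adjusted p = 0.270). Bcl2l15 was at 71.7, 44.9 and 57.4 CPM in KO and at 51.2, 35.2 and 34.2 CPM in WT, which overlapped, with a log2 change of 0.53 (95% interval 0.10 to 0.96, edgeR quasi-likelihood adjusted p = 0.125). With the replicate number as a block Bcl2l15 was called at day 14 (0.53, adjusted p = 0.0383), as it was without the filter on low counts (0.0403). The estimates were -0.24 for Bcl2l11, 0.15 for Bak1, -0.13 for Bok, 0.09 for Bcl2l1, -0.019 for Mcl1 and 0.0099 for Bcl2l14 on the log2 scale, and none passed. Over the 10 the median was -0.0045, beside 0.0022 over all genes. Of the cell type markers at day 14, 8 of 8 enteroendocrine markers were called higher (summed level 778 to 933 CPM in KO and 255 to 333 CPM in WT), and 1 of 6 Paneth, 1 of 6 stem cell and 1 of 7 goblet cell markers lower. Paneth cell markers summed to 5412 to 7144 CPM in KO and 9061 to 20047 CPM in WT, and stem cell markers to 1573 to 1861 CPM in KO and 2118 to 2327 CPM in WT. Of 8 enterocyte markers 1 was called higher, and the median over the list was 0.81. Their part in the change of Bmf was not tested.

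**Figure D3:**
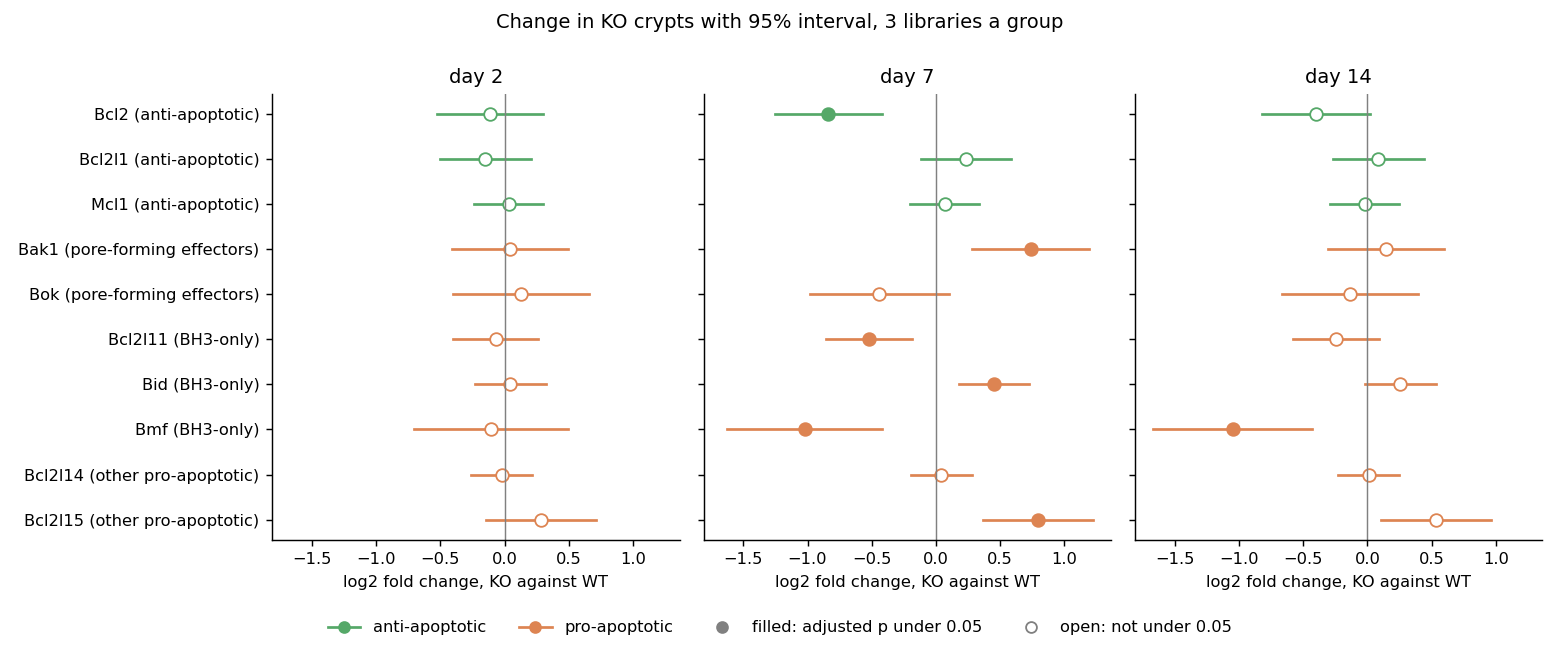
Log2 fold change of KO against WT with its 95% interval for the 10 members at each day, anti-apoptotic in green and pro-apoptotic in orange, filled where the adjusted p is under 0.05. At day 2 no point is filled, at day 7 there are 6, and at day 14 Bmf (-1.05) is the filled point.

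Taking days 7 and 14 together, as the mean of both KO effects, 6 members were called, against 25.7% of all genes. They were the same 6 as at day 7: Bmf at -1.04 (edgeR quasi-likelihood adjusted p = 0.00097), Bcl2 at -0.62 (0.00312), Bcl2l11 at -0.38 (0.0174), Bcl2l15 at 0.66 (0.00203), Bid at 0.35 (0.00795) and Bak1 at 0.44 (0.0402). The day 7 libraries enter this mean, so it is not separate support for the calls of day 7. Bmf, Bcl2, Bid and Bcl2l15 were called whichever of the 12 libraries was left out. Bcl2l11 was called in 10 of these 12 fits and Bak1 in 3, with an adjusted p of up to 0.0979 for Bak1, without KO day 7 replicate 1, and of up to 0.0691 for Bcl2l11, without KO day 14 replicate 3.

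Whether the effect differed between days was tested directly, and no member passed. Between days 7 and 2, where 4.37% of all genes were called, the effects differed by -0.72 for Bcl2 (95% interval -1.31 to -0.13, edgeR quasi-likelihood adjusted p = 0.169), by -0.92 for Bmf (-1.76 to -0.07, adjusted p = 0.237), by 0.70 for Bak1 (0.06 to 1.34, adjusted p = 0.230) and by 0.40 for Bid (0.02 to 0.79, adjusted p = 0.253). These 4 had an unadjusted p under 0.05, and without KO day 7 replicate 3, Bcl2 (-1.01, edgeR adjusted p = 0.0205) and Bak1 (0.93, adjusted p = 0.0438) were called. DESeq2's Wald test called 0 members here. Between days 14 and 7 the 10 differences ran from -0.59 for Bak1 (95% interval -1.23 to 0.05) to 0.44 for Bcl2 (-0.16 to 1.03). No member and no gene at all was called in this comparison (953 genes had an unadjusted p under 0.05, and DESeq2's Wald test called 2 genes). No member had an unadjusted p under 0.05 here, so the calls of day 7 and day 14 were not shown to differ. In WT crypts no member was called between day 7 and day 2 (0.553% of all genes) or between day 14 and day 2 (1.61%), by edgeR or by DESeq2's Wald test. The WT libraries lay apart for 4 of 10 members between days 7 and 2, against 28.4% of all genes, and for 0 of 10 between days 14 and 2, against 23.8%. The largest estimates there were a log2 difference of -0.46 for Bak1 (-0.91 to -0.01) and 0.45 for Bcl2l15 (0.02 to 0.87) at day 7, and 0.46 for Bmf (-0.12 to 1.05) at day 14, with 2 members at an unadjusted p under 0.05 in the first comparison and 1, Bcl2l1, in the second.

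Set against each other, the distance between the pro- and anti-apoptotic classes depended on which members were counted and how. The mean log2 CPM of the 5 effectors and BH3-only members minus that of the 3 anti-apoptotic members was -1.59 ± 0.149 in KO and -1.62 ± 0.218 in WT at day 7, each over 3 libraries with their SD. The difference of 0.03 is smaller than the spread of the libraries. The difference was 0.09 at day 2 and -0.09 at day 14. With Bcl2l14 and Bcl2l15 added to the pro-apoptotic side, which makes 7 genes, it was 0.20 at day 7, 0.12 at day 2 and 0.044 at day 14. No p was computed for this score, since it runs over chosen members. With the summed RPKM, in which abundant transcripts dominate, the 5 pro-apoptotic genes made up 50.6% ± 5.30 of the 8 genes in KO and 42.8% ± 2.00 in the WT libraries of day 7 (SD over 3 libraries). The KO libraries ranged from 44.5% to 54.2% and overlapped the WT range of 41.2% to 45.0%. Bak1 accounted for 80.0% of the pro-apoptotic sum in KO and 70.7% in WT, and the sum of the anti-apoptotic genes was 48.6 RPKM in KO and 46.4 RPKM in WT. At day 14 the share was 48.4% ± 1.2 in KO and 46.1% ± 3.62 in WT. Family genes that are not members were left out of the score and the share, so neither covers the whole of each class. Of those, Bax averaged 15.8 RPKM in KO and 10.7 RPKM in WT at day 7, and Bcl2l2 averaged 9.44 and 9.68 RPKM.

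**Figure D4:**
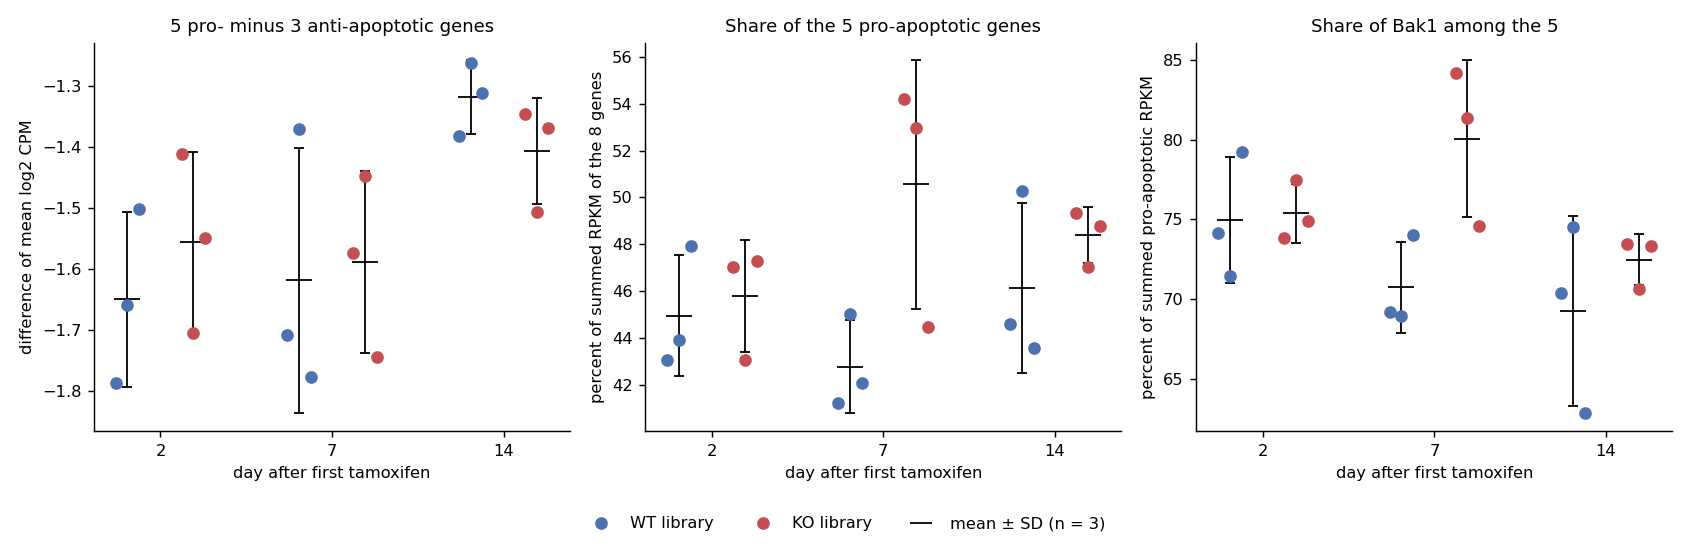
For every library by day, the mean log2 CPM of 5 pro-apoptotic minus 3 anti-apoptotic genes, the pro-apoptotic percent of their summed RPKM, and the percent of Bak1 in the pro-apoptotic sum, with mean and SD of 3 libraries. The first measure differs by 0.03 between KO and WT at day 7, while the second is 50.6% in KO and 42.8% in WT.

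The upstream sequence of the 6 members called at day 7 is shown because they moved in opposite directions. For each, the 100 bases before the RefSeq start (GRCm38.p6) are given in the direction of transcription, with GC boxes (GGGCGG or CCGCCC) and CCAAT boxes (CCAAT or ATTGG) in capitals. All 10 members were matched in the RefSeq table. It lists 3 starts for Bmf and 2 for Bcl2l11, of which the one nearest the gene start in the count table was taken, and 1 start for the other 4. The members that fell come first.
Bcl2 (chr1:106714291-106714390, minus strand): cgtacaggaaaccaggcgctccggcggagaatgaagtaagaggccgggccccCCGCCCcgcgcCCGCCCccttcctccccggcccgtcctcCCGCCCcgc
Bcl2l11 (chr2:128125938-128126037, plus strand): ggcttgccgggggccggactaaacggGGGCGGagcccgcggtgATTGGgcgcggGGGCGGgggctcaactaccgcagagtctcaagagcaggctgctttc
Bmf (chr2:118549687-118549786, minus strand): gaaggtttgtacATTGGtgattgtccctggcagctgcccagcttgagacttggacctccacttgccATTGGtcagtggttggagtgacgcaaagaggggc
Bak1 (chr17:27028628-27028727, minus strand): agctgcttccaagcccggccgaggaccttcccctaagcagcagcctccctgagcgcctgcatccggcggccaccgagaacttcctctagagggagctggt
Bid (chr6:120916825-120916924, minus strand): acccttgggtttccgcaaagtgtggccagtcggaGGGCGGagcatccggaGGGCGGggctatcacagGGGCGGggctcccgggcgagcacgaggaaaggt
Bcl2l15 (chr3:103832596-103832695, plus strand): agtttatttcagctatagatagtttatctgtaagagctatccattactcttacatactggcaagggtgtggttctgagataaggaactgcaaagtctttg
The RefSeq starts of Bak1, Bcl2l15 and Bid lie 382, 95 and 29 bases inside the start of the gene in the count table, so all of the stretch shown for Bak1, nearly all of that for Bcl2l15 and part of that for Bid lie within the counted gene. In the 250 bases before the start, on both strands, Bcl2 held 7 GC boxes, Bcl2l11 held 3 and Bid held 3, while Bmf, Bak1 and Bcl2l15 held 0, and 32.7% of all 32851 RefSeq promoters held at least 1. CCAAT boxes were found in Bmf (3) and Bcl2l11 (1), and in 33.9% of all promoters. TATAAA, on either strand, and CACGTG were absent from the 250 bases of these 6 genes and occurred in 12.4% and 6.02% of all promoters. GC content was 74.8%, 72% and 54.0% for Bcl2, Bcl2l11 and Bmf, and 58.4%, 63.6% and 38.8% for Bak1, Bid and Bcl2l15, with a median of 52.4% over all promoters. Neither motif was shared by all members that fell or by all that rose.

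Strand was not used in the counting and a fragment over 2 genes was counted for both, so members whose exons overlap another gene are uncertain. Bak1 shares 437 exon bases of its 2407 with Ggnbp1 on the other strand, which had 15507 counts over all libraries against 30092 for Bak1 and changed by 0.65 at day 7 (edgeR quasi-likelihood adjusted p = 0.0150), and reads of the shared bases cannot be told apart. It shares another 177 bases with Gm50253, also on the other strand, which had 6402 counts and a change of -0.11 (adjusted p = 0.547). Bcl2 shares 558 of 9157 bases with D630008O14Rik on the other strand, which had 827 counts over all libraries against 5212 for Bcl2 and changed by -0.95 (adjusted p = 0.0315). Bid shares 628 of 3550 bases with Bcl2l13 on the other strand, which had 18319 counts against 6167 for Bid and a change of 0.08 (adjusted p = 0.784). Bcl2l15 shares 569 of 2714 bases with Gm43064 on its own strand, which had 18816 counts against 21270 for Bcl2l15 and a change of 0.25 (adjusted p = 0.227). The overlap of Bcl2l14 with 4933406J09Rik, which had 8 counts, spans 577 bases.

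Genes with the most similar pattern were taken as the 3 with the highest Pearson r of log2 CPM over the 18 libraries, which fall into the 6 groups, among 21339 genes. For Bcl2 they were Spidr (r = 0.936), Cyp2r1 (0.927) and Cftr (0.914), and for Bcl2l11 they were Ghr (0.905), Tcaf2 (0.901) and Cdk6 (0.898). For Bmf they were C1qtnf1 (0.882), Erich5 (0.865) and Gm36738 (0.858). Bak1 was most like Ggnbp1 (0.977), with which it shares reads, Lrrc59 (0.965) and Smdt1 (0.963). Bid was most like Dipk1a (0.879), Agmat (0.877) and Il1rn (0.873), and Bcl2l15 most like 2610318M16Rik (0.908), Gmeb1 (0.907) and Slc34a1 (0.898).

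Beyond the members, 48 other apoptosis genes in 5 lists gave the pathway around them, of which 44 were tested; Bcl2a1a, Bcl2a1d, Bcl2l10 and Hrk, with 0 to 11 counts per library, were not. At day 7, 7 of the 44 rose and 2 fell. These 9 of 44 are a share near the 17.3% of all genes called. At day 14, 2 rose, against 3.23% of all genes called higher. Of the 11 tested genes of the wider family, 3 rose at day 7, against 7.11% of all genes called higher. Bnip3, a mitochondrial protein known from the clearance of mitochondria, was at 11.2, 6.91 and 4.93 CPM in KO and 2.63, 3.51 and 2.98 CPM in WT (log2 fold change 1.35, SE 0.28, edgeR quasi-likelihood adjusted p = 0.00267). Bbc3, which encodes the p53 target Puma, changed by 0.80 (adjusted p = 0.0185), and Bax, the partner of Bak1, by 0.56 (adjusted p = 0.00774). All KO libraries were above all WT libraries for these 3 genes at day 7. Bax was already at 19.6, 22.1 and 25.8 CPM in KO and at 15.5, 14.9 and 18.7 CPM in WT at day 2, without a call. At day 14 Bax averaged 16.7 CPM in KO and 16.8 CPM in WT. The call of Bbc3 was lost without WT replicate 2 or KO replicate 2, with an adjusted p of up to 0.0898, and with only the groups compared (0.0506).

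Among 7 executioner caspases and inhibitors of caspases, 2 rose and 1 fell at day 7, against 7.11% of all genes called higher and 10.2% lower. Casp6, an executioner caspase, was at 159, 137 and 92.3 CPM in KO and 61.6, 74.6 and 56.0 CPM in WT (log2 fold change 1.02, SE 0.22, edgeR quasi-likelihood adjusted p = 0.0040). KO replicate 1 was its highest library, and no KO library overlapped WT. The inhibitor Xiap rose by 0.57 (adjusted p = 0.0152), and Birc3, which encodes cIAP2, fell by 0.57 (adjusted p = 0.00432). In the death receptor list 2 of 11 genes were called, a share near the 17.3% of all genes: the adaptor Tradd at 0.59 (adjusted p = 0.0269) and Tnfsf10, the ligand TRAIL, at -0.50 (adjusted p = 0.0195). Of 6 binding partners and turnover factors 1 was called, also near the share of all genes. It was Dynll1, a dynein light chain, which rose by 0.52 (edgeR adjusted p = 0.0365). Birc3 was called in all 6 fits with 1 day 7 library left out. Xiap was called in 4 of these fits, Tradd and Tnfsf10 in 2 each and Dynll1 in 1 (without KO replicate 3), with an adjusted p of up to 0.126. With only the groups compared Tnfsf10 was not called (0.0507). None of the 9 mitochondrial apoptosis genes, Apaf1, Cycs and Casp9 among them, was called at day 7, where 1 had an unadjusted p under 0.05, or at day 14, where 0 did. At day 14 Bnip3 (1.16, SE 0.30, edgeR quasi-likelihood adjusted p = 0.0212) and Casp6 (0.78, SE 0.22, adjusted p = 0.0382) were called, and at day 2 none of the 44, of which 3 had an unadjusted p under 0.05. With 1 day 14 library left out, Bnip3 was called in 3 of 6 fits and Casp6 in 1, without WT replicate 2, with an adjusted p of up to 0.0912 and 0.131. Casp6 was not called at day 14 with only the groups compared (0.121), and Tradd, not called at day 14 in the model used here (0.58, adjusted p = 0.0557), was called there in 6 of 8 other settings, with an adjusted p from 0.0116 to 0.0488 and of 0.0178 with the replicate block. Birc3, also not called at day 14 (adjusted p = 0.0522), was called there in 2 of 8, by DESeq2's Wald test (0.0462) and without the 20 most abundant genes (0.0495).

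**Figure D5:**
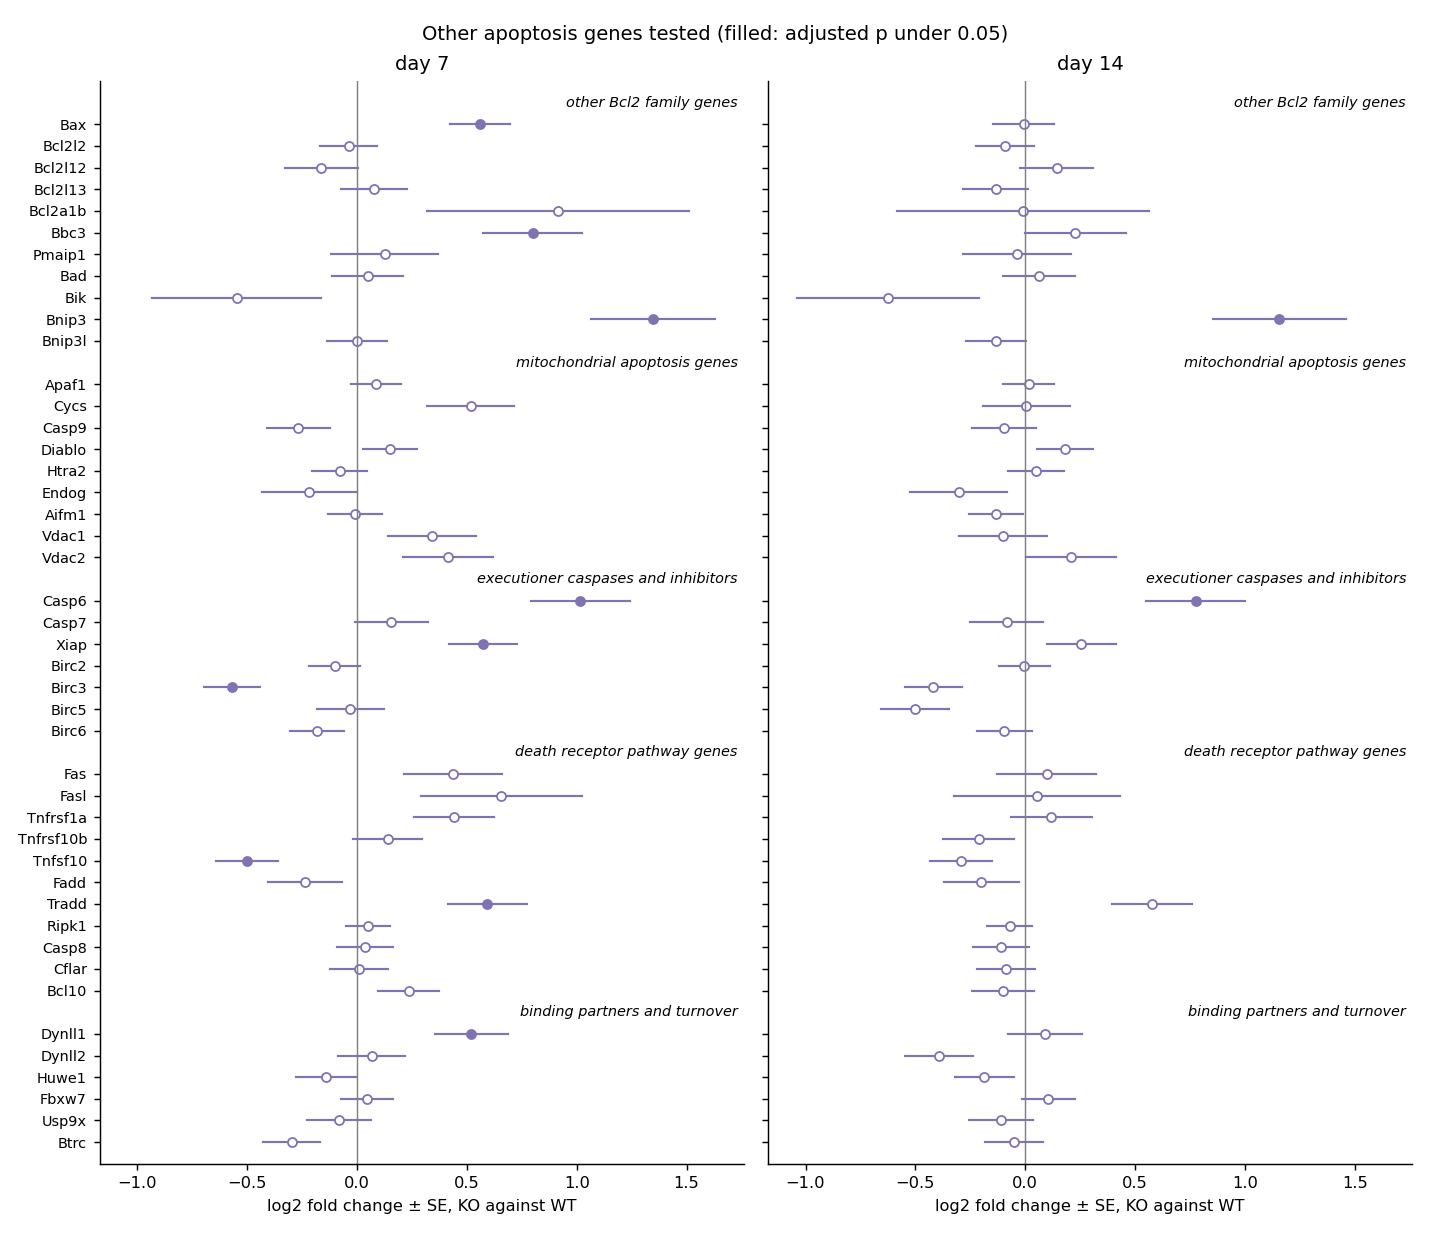
Log2 fold change of KO against WT with its SE at days 7 and 14 for the 44 other apoptosis genes tested, grouped by list, filled where the adjusted p is under 0.05. At day 7 the filled points include Bnip3 (1.35) and Casp6 (1.02), and at day 14 Bnip3 (1.16) and Casp6 (0.78) are the filled points.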

How the data were processed

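RNA-Seq of small intestinal crypts gave 18 libraries in 6 groups, 3 mice per genotype and day, grouped by the labels. The authors sequenced 100 bp paired ends, aligned them with STAR 2.7.3, counted fragments per gene with featureCounts 1.6.4 (GENCODE release 23, mm10, per the file header) and deposited raw counts, whereas their methods give release 26. Counting ignored strand, fragments over several genes were counted for each, and multimapping ones were not counted. HTSeq is also listed in the submitters' processing notes. All columns were used.

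Genes were kept with filterByExpr, normalized by TMM and fitted in 1 quasi-likelihood model of all libraries with robust dispersions (edgeR 4.0.16, limma 3.58.1, R 4.3.3), adjusted by Benjamini-Hochberg, and called under 0.05. The 20 sex-linked or sex-biased genes that the study set aside were left out. Intervals are 95% intervals of the fit. Levels per length are RPKM over the exon bases of the count table, and log2 CPM used a prior count of 2. The study itself used pairwise DESeq2. Alternatives were DESeq2 1.42.0 (test, or size factors alone), no filter, a mean count of at least 50, the sex list kept, the 20 most abundant genes left out, only the groups compared, a replicate block, and leaving out 1 library at a time.

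The members and lists were chosen with earlier results of these data known. Named are all members, Prmt1, up to 4 called genes with the largest change per list and KO comparison, and the 3 genes most like each called member; genes that overlap a member in exons and the marker lists were added. 1 gene of the pathway lists was left out and is not reported here. Labels do not tie replicate numbers to litters. Deviations of same-numbered libraries correlated at 0.159 to 0.227 at day 14, above 0.1 in each pair, but not at every pair of days 2 and 7; blocked values are therefore given at day 14 where they change a call. At totals of 12844642 to 31493484 counts, replicate libraries differed by more than counting noise, averaged over genes with a combined count of at least 50. This average does not show the same for a single gene of few counts such as Bmf, at 30 to 147 per library. On simulated data at day 7, of genes changed by 1 on the log2 scale 38.8% were called, and of those changed by 0.5, 3.12% (21008 genes). In that simulation 98 genes were changed by 1 and 96 by 0.5, far fewer than the 3690 genes called in the real data of day 7. The adjustment was therefore stricter in the simulation, and these percents do not give the power in the real data.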

Additional observations from a re-analysis of the deposited data

Results flagged for a closer look

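The KO effect differed between day 7 and day 2 in 2 of the 44 tested apoptosis genes outside the 10 members. The difference itself was tested (edgeR's quasi-likelihood test, adjusted over all genes). A share of 2 in 44 is near the 4.37% of all genes called in this comparison. The difference in log2 effects for Bnip3 was 1.62 (adjusted p = 0.0243), from -0.28 at day 2 to 1.35 at day 7. Casp6 had a difference of 1.44 (adjusted p = 0.0139), from -0.42 to 1.02. Neither had a KO effect at day 2 that passed the test (adjusted p = 0.999 for each). Which genes passed depended on the setting: Xiap (adjusted p = 0.0621) passed by DESeq2's Wald test (0.0186), at a mean count of at least 50 (0.0391), with the replicate block (0.0228), and without WT day 2 replicate 2 (0.0495) or KO day 7 replicate 3 (0.0489). The difference of Casp6 was called whichever of the 12 libraries was left out. That of Bnip3 was lost in 5 of these 12 fits, without WT day 2 replicate 1, KO day 2 replicate 2, WT day 7 replicate 1 or 3, or KO day 7 replicate 1 (adjusted p of up to 0.0792). Bnip3 was at 6.70 ± 2.27 CPM at day 2 and 3.04 ± 0.447 CPM at day 7 in WT, and at 5.54 ± 0.706 and 7.68 ± 3.21 CPM in KO (SD, n = 3 each). Casp6 was at 100.3 ± 14.0 and 64.1 ± 9.52 CPM in WT and at 74.9 ± 7.59 and 129 ± 34.1 CPM in KO. Within WT, day 7 against day 2 gave -1.15 for Bnip3 (edgeR adjusted p = 0.0563) and -0.65 for Casp6 (adjusted p = 0.110) on the log2 scale. Bnip3 was called lower there by DESeq2's Wald test (0.00787), without the filter (0.00104) and without WT day 2 replicate 2 (0.0211). It was also called at a mean count of at least 50 (0.0439) and with only the groups compared (0.0474). Casp6 was called lower there without the filter (0.0445) and with only the groups compared (0.0453). The 8 enterocyte markers all had lower estimates in the same comparison, with a median of -0.97, 6 at an unadjusted p under 0.05 and a lowest edgeR adjusted p of 0.0964. Their part in the differences of Bnip3 and Casp6 was not tested.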

How the results depend on the processing

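The count of 6 members called at day 7 was 4 to 6 over the 8 other settings and 1 to 6 with 1 library left out. At day 14 the count of 1 was 2 without the filter on low counts and 2 with the replicate block, both times with Bcl2l15 added, and 0 to 1 with 1 library left out. The mean of both days kept 6 members under every other setting and 4 to 6 with 1 library left out, and the difference between days 7 and 2 gave 0 to 2. The replicate block changed no other call among the members; same-numbered libraries of a day had deviations correlated at -0.16 to 0.38 over all days, and at 0.16 to 0.23 at day 14. With only the groups compared in the fit, day 7 lost Bcl2l11 (adjusted p = 0.0636) and Bid (0.0748), and without the filter Bid (0.0916). The pro- minus anti-apoptotic difference over 5 and 3 genes was 0.45 at day 7 and 0.13 at day 14 as a log2 ratio of summed RPKM. As a mean log2 CPM over these genes, with 1 library left out, it ranged from 0.022 to 0.17 at day 2, -0.05 to 0.15 at day 7 and -0.12 to -0.04 at day 14. With Bcl2l14 and Bcl2l15 added that mean gave 0.12 at day 2, 0.20 at day 7 and 0.044 at day 14. Ranges with 1 library left out were computed for the mean over 5 and 3 genes alone, not for this version or the ratio of summed RPKM. Changes of sign occurred in values that were not called. With 1 library left out, day 2 gave -0.056 to 0.11 for Mcl1, -0.11 to 0.27 for Bak1, -0.12 to 0.32 for Bok, -0.29 to 0.27 for Bmf and -0.080 to 0.039 for Bcl2l14. Day 7 gave -0.017 to 0.15 for Bcl2l14. Day 14 gave -0.094 to 0.22 for Bcl2l1, -0.096 to 0.068 for Mcl1, -0.36 to 0.12 for Bok and -0.025 to 0.081 for Bcl2l14, which was -0.0034 without the filter. The mean of both days gave -0.0048 to 0.077 for Mcl1 and -0.0041 to 0.084 for Bcl2l14. Counts over all genes moved by over 1.5 times in some settings. At day 2, 7 became 13 with DESeq2's Wald test, 16 without the filter, 2 at a mean count of at least 50 and 3 with only the groups compared. For days 7 and 2, 934 became 1402 with DESeq2's Wald test. For days 14 and 7, 0 became 2 with that test, 2 without the filter and 1 with the replicate block. For WT day 7 against day 2, 118 became 1511 with DESeq2's Wald test, 1012 without the filter, 494 at a mean count of at least 50, 288 without the 20 most abundant genes, 576 with only the groups compared and 19 with the replicate block. For WT day 14 against day 2, 343 became 1383, 1011, 770, 441 (less than 1.5 times the main count), 28 and 173 in the same order. Without KO replicate 1, 3690 became 2051 at day 7 and 1690 became 1091 at day 14, and without KO replicate 3 the latter became 1041. With 1 library left out the count was 3 to 4 at day 2, as low as 431 for days 7 and 2 (without KO day 7 replicate 1), 0 to 535 for WT day 7 (535 without WT day 2 replicate 2) and 22 to 712 for WT day 14 (712 without that library). The causes were not tested. Fits that leave out a library have fewer samples.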
